A study of Mus musculus with 12 samples.

Results

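The 111 genes described here encode subunits of the oxidative phosphorylation (OXPHOS) complexes, out of 55414 genes in the count table. They were chosen by symbol among protein-coding genes of the mouse GENCODE annotation: names starting with Nduf, Uqcr, Atp5, Cox4 to Cox8, mt-Nd, mt-Co, mt-Cytb or mt-Atp, and Sdha to Sdhd. Of these, 98 lie in the nuclear genome and 13 in mitochondrial DNA (mtDNA). The nuclear members comprise 38 genes of complex I, 8 complex I assembly factors (the Ndufaf genes), 4 genes of complex II, 8 of complex III, 21 of complex IV and 19 of complex V. After a filter on low counts, 90 nuclear and 7 mtDNA members were tested. The 8 nuclear members not tested were Cox4i2, Cox6a2, Cox7b2, Cox8b, Cox8c, Ndufa4l2, Ndufb11b and one of a pair of rows with the symbol Atp5po.

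OXPHOS is the chain in the inner mitochondrial membrane that passes electrons from NADH and succinate to oxygen and uses the proton gradient so built to make ATP. Complexes I, III, IV and V are mosaics, with some subunits encoded by mtDNA and the others encoded in the nucleus and imported. Every subunit of complex II is nuclear. Absorptive enterocytes are rich in mitochondria, and the balance of mitochondrial respiration and glycolysis is known to differ between Paneth cells and the stem cells of the crypt.

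Bulk RNA-seq was done on 12 libraries, 3 in each of 4 groups, from C57BL/6J mice. Small intestinal crypts of wild-type (WT) mice and of mice labelled GRvillinKO (KO) were dissociated, and cells were sorted as Paneth cells (WT_PC, KO_PC) or as other cells (WT_nonPC, KO_nonPC). The label names the glucocorticoid receptor, encoded by Nr3c1, and the villin promoter, which is active throughout the intestinal epithelium, so both sorted fractions of the KO mice carry the deletion. The labels give no age, no treatment and no gate for the non-Paneth cells, and do not say whether each library is 1 mouse, so p-values measure the spread between these libraries only.

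Each library held 11126297 to 15910292 counts. For 6 samples the genotype characteristic disagreed with the title, and the title was used. Nr3c1 stood at 5.82 to 15.4 normalised CPM (counts scaled to a fixed library total with TMM factors) in KO_PC against 40.8 to 54.1 in WT_PC, and at 13.1 to 24.5 in KO_nonPC against 110 to 131 in WT_nonPC, without overlap. It fell by 2.31 ± 0.319 (SE) on the log2 scale in Paneth cells and by 2.67 ± 0.298 in non-Paneth cells (edgeR quasi-likelihood adjusted p = 0.0331 and 6.67e-05). Summed over 6 genes, Paneth markers were at 368750 to 578360 normalised CPM in the Paneth fractions and at 331 to 1053 in the others, and erythroid, endothelial and stromal markers were near 0 throughout. Bulk counts cannot tell fewer cells of a type from less RNA per cell.

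Not every mtDNA member could be counted. The 13 genes lie on chromosome M (GRCm39), and a nuclear copy of mtDNA on chromosome 1 covers 6 of them whole. The copy matches bases 6394 to 11042 of chromosome M and lies at chr1:24650616-24655265 on the minus strand, with 1 differing base and 1 gap over 4649 bases (99.96% identity). It contains mt-Co2, mt-Atp8, mt-Atp6, mt-Co3, mt-Nd3 and mt-Nd4l, 31.0% of mt-Co1 and 63.6% of mt-Nd4. The stretches below, each of 30 bases read from the GRCm39 reference in the 5′ to 3′ direction of the mtDNA genes, show the middle of mt-Co2 (chrM:7340-7369, plus strand, and chr1:24654290-24654319, minus strand) and the start of mt-Nd3 (chrM:9446-9475, plus strand, and chr1:24652184-24652213, minus strand). They are shown because mtDNA and the copy are the same in the first and differ by 1 base in the second, and capitals mark the only base within a gene at which the copy differs.
mt-Co2 in mtDNA: tatactgactatgaagacctatgctttgat
mt-Co2 in the chromosome 1 copy: tatactgactatgaagacctatgctttgat
mt-Nd3 in mtDNA: ccagaagagagtaatTaacctgtacactgt
mt-Nd3 in the chromosome 1 copy: ccagaagagagtaatCaacctgtacactgt

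The counts followed this map. Of the 100-base windows along each gene, none was unique in the genome for mt-Co2, mt-Atp8, mt-Atp6, mt-Co3 and mt-Nd4l, and 1.2% were unique for mt-Nd3. These 6 genes, which encode subunits of cytochrome c oxidase, ATP synthase and complex I, had 0 counts in every library apart from a single count of mt-Atp6 in WT_nonPC replicate 2. The share of unique windows was 39.3% for mt-Nd4, 69.2% for mt-Co1, 96.8% for mt-Nd2 and 100% for mt-Nd1, mt-Nd5, mt-Nd6 and mt-Cytb, and these 7 genes summed to between 745 (mt-Nd6) and 2315138 (mt-Co1) counts over the 12 libraries. A value of 0 is therefore no measure of the level of those 6 genes, and the levels of mt-Nd4 and mt-Co1 rest on part of their length. Read length was not given in the sources used here. With 50-base windows, 48.9% of mt-Co1 was unique. The 7 annotated pseudogenes of the chromosome 1 copy held few counts, at most 59 in any library (Gm29216).

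**Figure D1:**
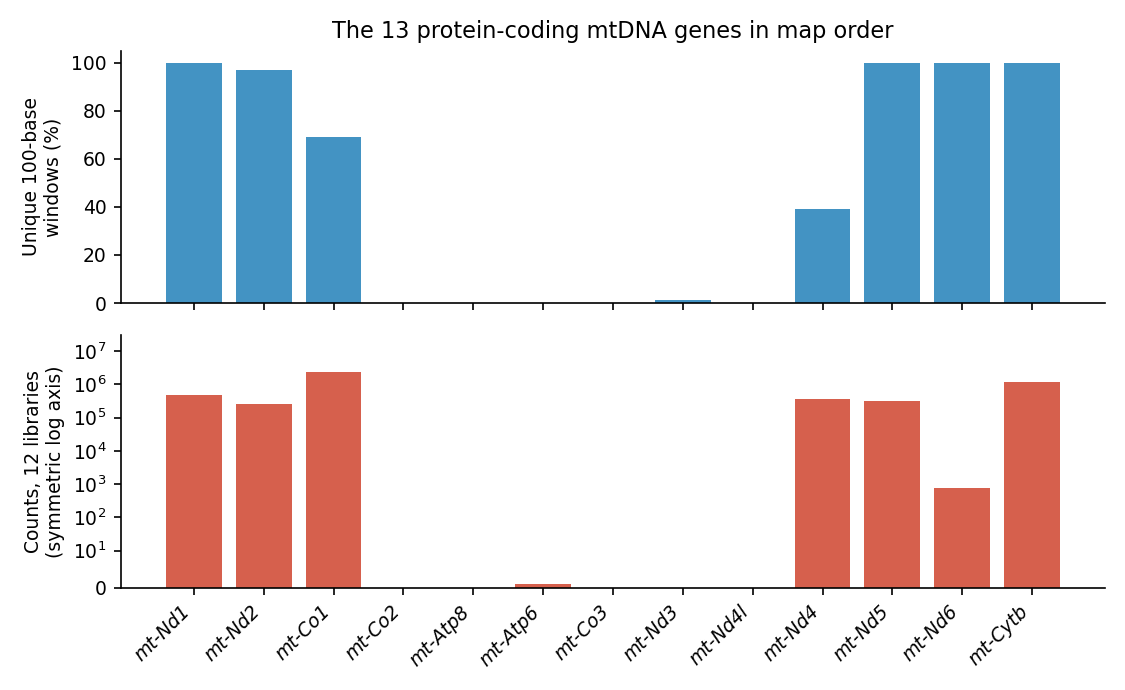
Percentage of 100-base windows of each mtDNA gene that occur once in GRCm39 (top) and counts summed over the 12 libraries (bottom, symmetric log axis), with genes in map order. The 6 genes from mt-Co2 to mt-Nd4l, at 0 to 1.2% unique windows, have 0 or 1 count.

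The nuclear members showed fewer such overlaps, since 67 of the 98 had only unique windows. Among those with low shares were Atp5mc2 (12.5%) and Atp5mc1 (34.7%), 2 of the 3 genes that encode the identical c subunit of the ATP synthase ring, and Cox7c (31.8%), a small subunit of complex IV. Per kb of annotated transcript, averaged over the 4 groups, the highest nuclear members by complex were Atp5f1b, the catalytic beta subunit of complex V, at 999 normalised CPM per kb, Cox4i1 of complex IV at 667, Uqcr10 of complex III at 398, Sdhd, a membrane anchor of complex II, at 238, and Ndufa6 of complex I at 165. The assembly factors stood lower, with Ndufaf8 highest at 20.3 normalised CPM per kb. On the same scale mt-Co1, the catalytic subunit of complex IV, reached 7892 and mt-Cytb, the mtDNA subunit of complex III, 5500. The single light-strand gene, mt-Nd6, which overlaps mt-Nd5 on the other strand, was at 7.62 normalised CPM per kb.

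The mtDNA members took up a larger part of WT_nonPC libraries than of any other. They made up 6.40%, 6.23% and 5.73% of all counts in the 3 WT_nonPC libraries, and 2.76%, 2.86% and 2.94% in KO_nonPC. In Paneth cells they made up 2.46%, 1.23% and 1.17% in WT_PC and 1.07%, 0.766% and 0.963% in KO_PC. The 4 ranges did not overlap, and WT_PC replicate 1 stood apart from the other two WT_PC libraries. The share of the nuclear members differed mainly between fractions, and the genotypes overlapped in non-Paneth cells but not in Paneth cells, at 2.15 to 2.51% of counts in WT_nonPC and 2.44 to 2.56% in KO_nonPC, against 1.01 to 1.28% in WT_PC and 0.862 to 0.945% in KO_PC. Paneth libraries spend much of their depth on a few secretory transcripts, so these shares and the scaled levels below answer different questions.

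Within a library, the ratio of mtDNA to nuclear counts does not depend on scaling between libraries. It was 2.55, 2.89 and 2.39 in WT_nonPC and 1.12, 1.17 and 1.15 in KO_nonPC, a mean of 2.61 ± 0.260 (SD, n = 3) against 1.15 ± 0.0253, or 2.28-fold higher in WT. In Paneth cells the ratio was 1.91, 1.23 and 1.15 in WT_PC and 1.13, 0.825 and 1.12 in KO_PC, with means of 1.43 ± 0.419 and 1.02 ± 0.172. The WT_nonPC libraries were above all 9 others. WT_PC and KO_PC did not overlap either, but their closest libraries, at 1.15 and 1.13, differed by less than either group's SD, and without WT_PC replicate 1 the WT_PC mean was 1.19. No test was made of the ratio, since it is a score over the members.

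**Figure D2:**
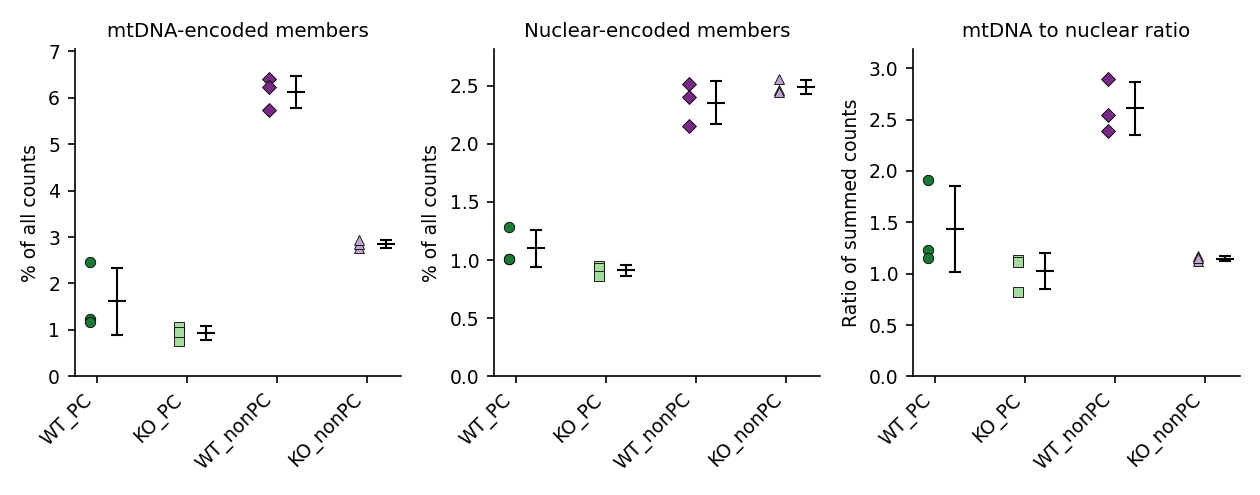
Share of all counts taken by mtDNA members (left) and by nuclear members (middle), and the ratio of the 2 sums (right), for each of the 12 libraries, with the group mean and SD beside the points. The mtDNA share separates WT_nonPC (5.73 to 6.40%) from KO_nonPC (2.76 to 2.94%), while the nuclear share overlaps between them.

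Among non-Paneth cells, every mtDNA member tested was lower in KO than in WT libraries. Normalised CPM of mt-Co1 were 25521, 25736 and 23170 in WT_nonPC and 8732, 9086 and 8722 in KO_nonPC, and those of mt-Cytb were 12338, 11305 and 9823 against 4517, 4432 and 5220. Among the complex I genes, mt-Nd5 stood at 3152, 3695 and 3588 against 1356, 1252 and 1309, and mt-Nd1 at 4864, 4908 and 4775 against 1861, 1986 and 2108. No KO_nonPC library reached a WT_nonPC library for any of the 7 genes, but the share of all genes separated in this way was not computed. All 7 fell in the test, where 37.3% of the 13057 genes tested were called (19.8% lower), by 1.24 ± 0.258 (mt-Cytb, log2 ± SE) to 1.80 ± 0.349 (mt-Nd6). The median log2 fold change of the 7 was -1.41, against 0.02 over all genes tested, and 7 of 7 passed whichever of the 6 libraries compared was left out. The mtDNA ribosomal RNAs, which share the heavy-strand transcript with most of these genes, moved the same way, with mt-Rnr2 at 1434 to 1989 normalised CPM in WT_nonPC and 397 to 469 in KO_nonPC.

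Levels of cell type markers in the non-Paneth fraction differed between genotypes as well. The 7 enterocyte markers (Alpi, Apoa1, Apoa4, Fabp1, Fabp2, Sis, Lct) summed to 21117 to 23773 normalised CPM in WT_nonPC and 3843 to 5087 in KO_nonPC, although only 2 of the 7 passed the test. Of the 4 proliferation markers, 4 were higher in KO_nonPC, as were 4 of 4 tuft markers, whose sum was 3.12 to 8.77 in WT_nonPC and 62.8 to 246 in KO_nonPC, and 3 of 4 stem cell markers. Goblet markers summed to 6532 to 14227 normalised CPM in WT_nonPC and 5485 to 7268 in KO_nonPC, and 2 of 6 were called lower (Muc2, Tff3). Immune markers summed to 2050 to 2223 in WT_nonPC and 322 to 1228 in KO_nonPC, and muscle markers to 2.23 to 7.16 and 1.49 to 2.56. Enteroendocrine sums overlapped, with 1 of 4 called higher in KO_nonPC (Pax6), as was 1 of 6 Paneth markers (Ang4). The part of these marker differences, or of cell makeup, in the mtDNA result was not tested.

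The mtDNA members were also lower in Paneth than in non-Paneth cells, for all 7 in WT mice and for 4 of 7 in KO mice. In WT_PC mt-Co1 was at 13664, 8359 and 6718 normalised CPM, below the lowest WT_nonPC library, and mt-Nd5 was at 1093, 1169 and 942. The 7 members fell by 0.90 ± 0.256 (mt-Cytb) to 1.70 ± 0.175 (mt-Nd5) on the log2 scale, and 7 of 7 passed, in a comparison where 50.7% of all genes were called (26.7% lower). Their median log2 fold change was -1.25, and -1.64 without WT_PC replicate 1, whose levels of mt-Cytb (8605) and mt-Co1 exceeded those of the other WT_PC libraries (mt-Cytb 5123 and 4175). In KO mice the same contrast gave a median of -0.63, with 4 of 7 lower (mt-Nd1, mt-Nd2, mt-Co1 and mt-Nd5) where 39.2% of all genes were called (21.2% lower). The count was 0 when KO_nonPC replicate 1, 2 or 3 was left out, 1 without KO_PC replicate 2 or 3 and 5 without KO_PC replicate 1. Marker levels differed between the fractions as well. Enterocyte markers summed to 21117 to 23773 normalised CPM in WT_nonPC and 236 to 1637 in WT_PC, and 7 of 7 were called lower in WT_PC. Tuft and stem markers were called higher there, 4 of 4 each. Of enteroendocrine markers 3 of 4 were lower in WT_PC, and of 6 goblet markers 3 were lower and 1 higher. In KO_PC 6 of 7 enterocyte markers were called lower than in KO_nonPC, with 4 of 4 tuft and 2 of 4 stem markers higher. Proliferation and enteroendocrine markers were lower in KO_PC, 4 of 4 each, and of 6 goblet markers 2 were lower and 2 higher. The part of these markers in the fraction differences was not tested.

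**Figure D3:**
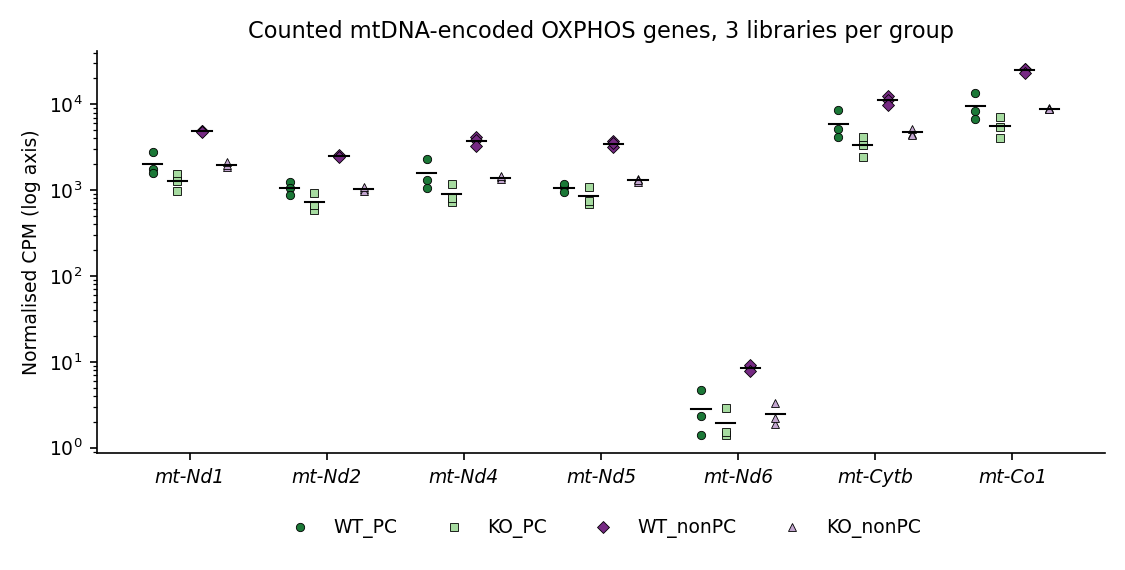
Normalised CPM (log axis) of the 7 mtDNA genes with counts, with 1 point per library and a bar at the group mean. WT_nonPC libraries are highest for each gene, and for mt-Co1 KO_nonPC (8722 to 9086) falls within the range of WT_PC (6718 to 13664).

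For the genotype difference within Paneth cells the mtDNA members had a median log2 fold change of -0.69. All 7 values were below 0, against 6129 of 13057 over all genes tested. Of the 7, 0 passed, where 3.22% of all genes were called. At an unadjusted p under 0.05 there were 5, and 5 passed by DESeq2. Levels of mt-Nd1 were 2803, 1755 and 1571 normalised CPM in WT_PC and 1548, 966 and 1275 in KO_PC, and those of mt-Nd4 were 2314, 1330 and 1067 against 1174, 724 and 800. The highest value in each case was that of WT_PC replicate 1, without which the median was -0.41. Without KO_PC replicate 1 there were 6 calls and without WT_PC replicate 3 there were 4. Removing the trend with gene length and GC content moved the median to -0.28, with 0 calls. The interaction, which is the genotype difference in Paneth cells minus that in non-Paneth cells, was above 0 for each of the 7 (median 0.70). Over all genes tested, 6447 of 13057 values were above 0. Of the 7, 2 passed in edgeR, mt-Nd5 at 1.08 ± 0.242 and mt-Nd2 at 0.74 ± 0.243 (adjusted p = 0.0076 and 0.0443), where 18.7% of all genes were called (11.5% higher and 7.28% lower). The comparisons share libraries, so their values are set side by side only.

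The nuclear members also stood lower in Paneth cells, by less. In WT mice 38 of 90 were lower and 1 was higher, with a median log2 fold change of -0.30, so 43.3% were called against 50.7% of all genes, and most of the calls were in 1 direction. In KO mice 42 were lower and 1 was higher, with a median of -0.39, so 47.8% were called against 39.2% of all genes (21.2% lower), whose median was -0.08. Scaling by library totals alone, which shifted the median of all genes to -0.68 and -1.05 in these comparisons, gave 84 and 90 lower and none higher.

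Complex II, whose genes are all nuclear, was the only complex with each nuclear member called in both genotypes. Sdha, the flavoprotein that oxidises succinate, was at 295, 292 and 298 normalised CPM in WT_PC and 536, 532 and 597 in WT_nonPC. In KO_PC it was at 328, 388 and 344, and in KO_nonPC at 683, 576 and 602. Paneth and non-Paneth libraries did not overlap in either genotype, with differences of -0.91 ± 0.118 and -0.81 ± 0.118 (log2 ± SE, adjusted p = 1.17e-05 and 6.7e-05). Sdhb, the iron-sulfur subunit, was at 150, 183 and 163 in WT_PC and 350, 294 and 325 in WT_nonPC, a difference of -0.97 ± 0.132. The membrane anchors Sdhc and Sdhd differed by -0.61 ± 0.107 and -0.55 ± 0.149, and all 4 genes were lower in KO_PC than in KO_nonPC as well. The call of Sdhd was lost in WT mice without WT_nonPC replicate 3 and in KO mice without KO_nonPC replicate 3 (edgeR adjusted p = 0.0605 and 0.0746). The 8 assembly factors, in contrast, gave 0 calls in WT mice by edgeR (0 at an unadjusted p under 0.05, 0 by DESeq2) and 3 lower in KO mice.

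**Figure D4:**
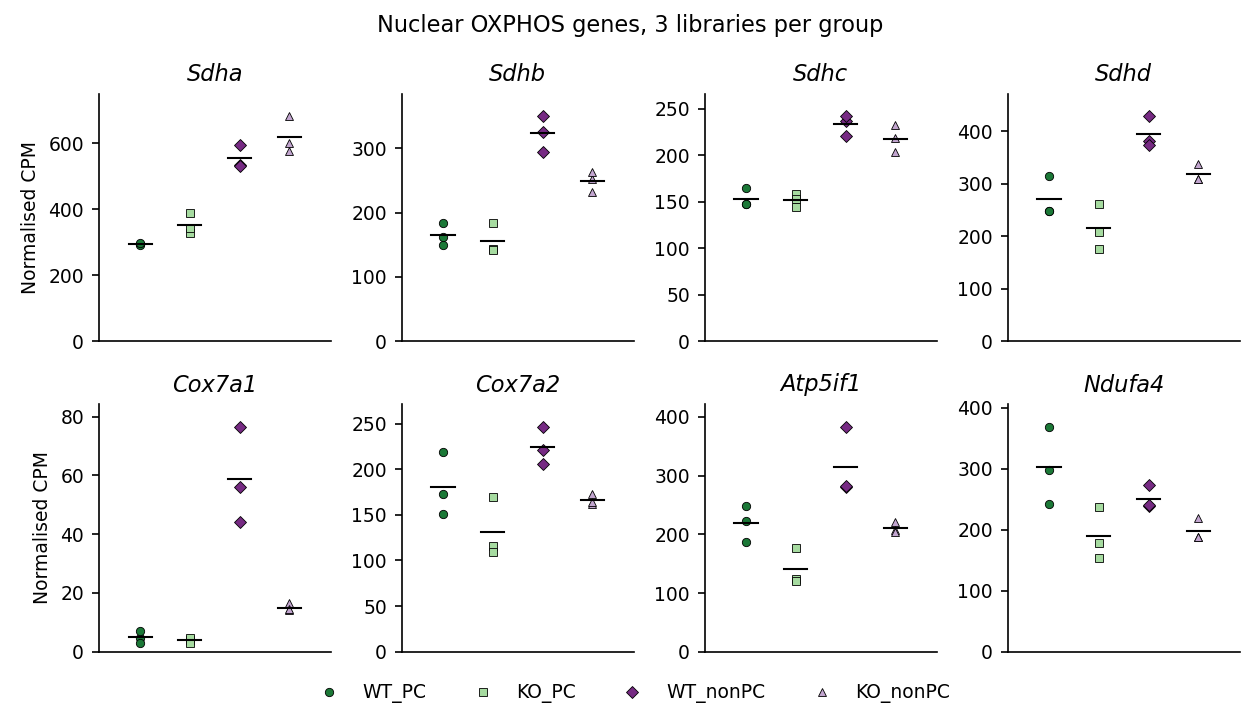
Normalised CPM of 8 nuclear members on linear axes from 0, with 1 point per library and a bar at the group mean. Within each genotype Sdha to Sdhd separate Paneth from non-Paneth libraries, Cox7a1 is highest in WT_nonPC (44.1 to 76.6), and Ndufa4 and Atp5if1 are lower in the KO groups.

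Of the other complexes, complex I had 14 lower and 1 higher of 37 tested in WT mice, complex III 4 lower of 8, complex IV 7 lower of 15 and complex V 9 lower of 18. These were 40.5%, 50%, 46.7% and 50% called, at or below the 50.7% of all genes. Uqcrc1, a core protein of complex III, was at 314, 357 and 306 normalised CPM in WT_PC and 548, 533 and 578 in WT_nonPC, and its difference was -0.76 ± 0.122 in WT and -0.72 ± 0.122 in KO mice. In KO mice Ndufa5, an accessory subunit of complex I, was at 44.8, 38.0 and 32.9 in KO_PC and 61.2, 61.4 and 66.1 in KO_nonPC, a difference of -0.71 ± 0.133. Atp5mc3, one of the c-ring genes, was lower there by 0.70 ± 0.131 on the log2 scale. Ndufa7, an accessory subunit of complex I, was the 1 gene called higher in WT_PC, at 166, 130 and 105 normalised CPM against 94.8, 78.3 and 76.0, a difference of 0.69 ± 0.215 that was 0.0026 under library totals. Ndufa1, the 1 gene called higher in KO_PC than in KO_nonPC at 0.51 ± 0.166, turned to -0.48 under library totals and to -0.16 once the trend with gene length and GC content was removed.

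**Figure D5:**
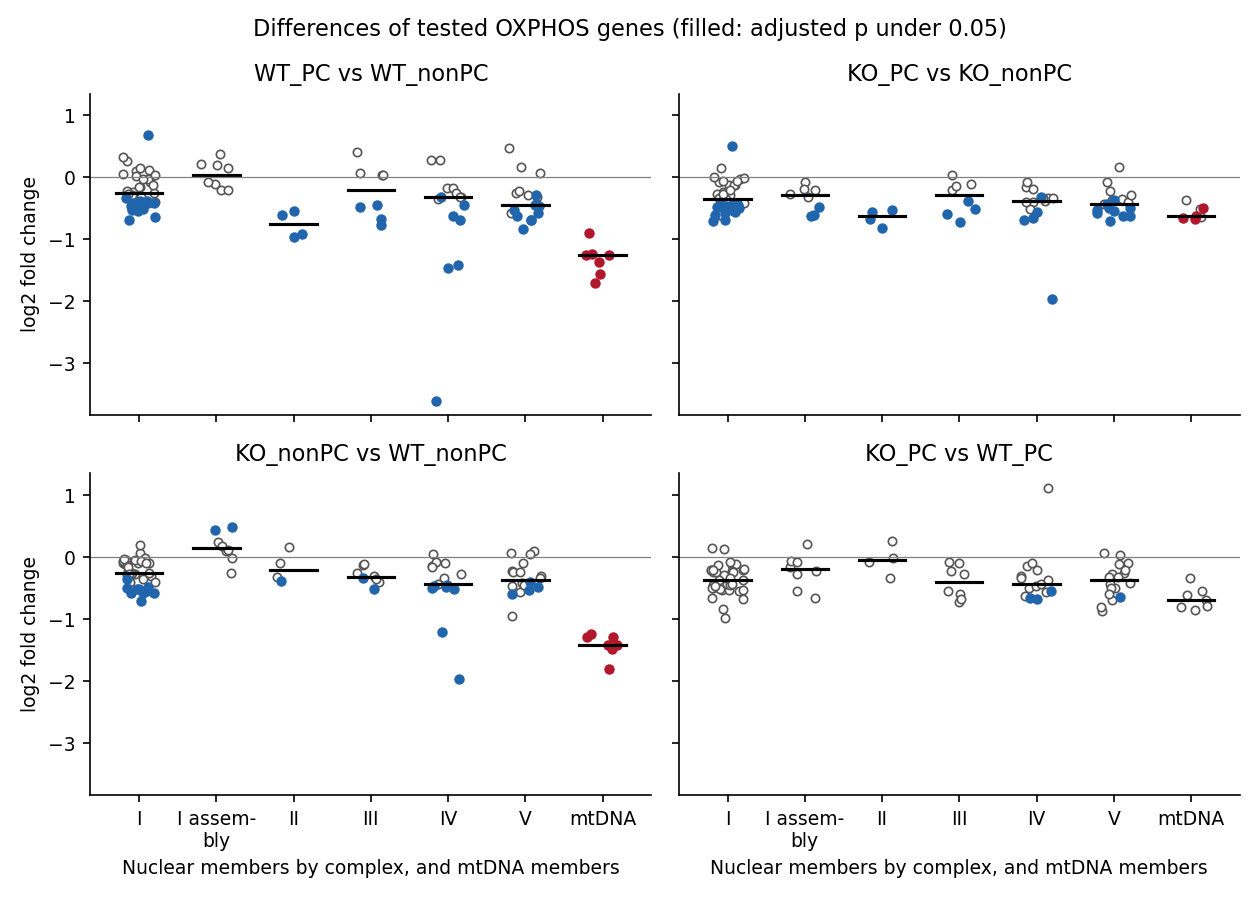
Log2 fold change of each tested member in 4 comparisons, by complex for nuclear genes and for mtDNA genes, with a bar at the median and filled points for adjusted p under 0.05 (blue nuclear, red mtDNA). The mtDNA medians are -1.25, -0.63, -1.41 and -0.69 in panel order, and Cox7a1 is the low point of complex IV in the first 3 panels.

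Cox7a1 had the largest difference of any nuclear member. It encodes the form of a small complex IV subunit known from heart and skeletal muscle, and its counterpart Cox7a2 is expressed in most tissues. Cox7a1 was at 76.6, 44.1 and 56.0 normalised CPM in WT_nonPC and 16.6, 14.1 and 14.4 in KO_nonPC, but at 4.56, 7.17 and 2.84 in WT_PC and 3.99, 4.58 and 2.93 in KO_PC. No library of one fraction reached the other. The genotypes were separate in non-Paneth cells and overlapped in Paneth cells. The difference between fractions was -3.61 ± 0.279 in WT and -1.97 ± 0.280 in KO mice, and that between genotypes -1.97 ± 0.240 in non-Paneth and -0.33 ± 0.318 in Paneth cells (adjusted p = 0.524). The interaction was 1.64 ± 0.396 (adjusted p = 0.0122), and it was the only 1 of 90 called among nuclear members in that contrast (1.11%, against 18.7% of all genes). The 4 muscle markers summed to 2.23 to 7.16 normalised CPM in WT_nonPC and to 1.81 to 4.21 in the Paneth libraries. These sums are not adjusted for transcript length, so they are not set against the level of Cox7a1. The 1 muscle marker tested, Acta1, was lower in WT_PC than in WT_nonPC (-1.01 ± 0.403, adjusted p = 0.0476) and in KO_nonPC than in WT_nonPC (-1.33 ± 0.381, adjusted p = 0.0129), and its part in the result was not tested.

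The counterpart Cox7a2 was at 247, 205 and 221 normalised CPM in WT_nonPC and 162, 164 and 173 in KO_nonPC, a difference of -0.43 ± 0.167 that did not pass (adjusted p = 0.053). Other tissue-restricted forms were absent or nearly so. Cox8b and Cox8c had 0 counts in every library, Cox4i2 had counts in 1 library and Cox6a2 in 4, the highest at 0.233 normalised CPM, and Ndufa4l2 reached at most 0.353 normalised CPM, whereas their common forms Cox4i1, Cox6a1, Cox8a and Ndufa4 were at 153 normalised CPM or more in every library. Cox6b2, the form known from testis, was present at low level, at 9.10, 4.24 and 4.49 in WT_nonPC and 3.13, 2.10 and 1.30 in WT_PC, a difference of -1.42 ± 0.416. The gene annotated as Cox5b-ps, a near copy of Cox5b with 70.8% unique windows, was at 0.285 to 0.495 normalised CPM in WT_PC and 0.763 to 1.23 in WT_nonPC (log2 fold change -1.46 ± 0.480), and reads of Cox5b may count in it.

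In non-Paneth cells the genotype difference of the nuclear members was smaller than that of the mtDNA members and depended on the scaling. With TMM factors 24 of 90 were lower in KO_nonPC and 2 higher (28.9%, against 37.3% of all genes), with a median log2 fold change of -0.26. With library totals, which put the median of all genes at 0.31, 7 were higher and 2 lower and the median was 0.02. The mtDNA members had 7 of 7 lower under both. Removing the trend with length and GC content gave 12 lower and 4 higher with a nuclear median of -0.08, and leaving out WT_nonPC replicate 1 left 7 lower with TMM factors.

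Among the nuclear members that fell with TMM factors, Atp5if1, which encodes the inhibitor of ATP synthase hydrolysis, was at 383, 280 and 282 normalised CPM in WT_nonPC and 207, 203 and 222 in KO_nonPC, a difference of -0.58 ± 0.166 (adjusted p = 0.0122). Ndufa1 was at 73.0, 53.0 and 58.6 against 39.5, 39.6 and 34.8 (-0.70 ± 0.164), and Ndufa6 at 142, 115 and 113 against 78.9, 84.0 and 85.0 (-0.58 ± 0.144), and both encode accessory subunits of complex I. Cox6b2 also fell, by 1.21 ± 0.382 on the log2 scale. The 2 that rose were assembly factors of complex I. Ndufaf4 was at 21.9, 18.4 and 28.5 in WT_nonPC and 30.2, 35.9 and 30.1 in KO_nonPC (0.48 ± 0.155), and Ndufaf1 at 14.4, 14.8 and 17.3 against 20.6, 19.8 and 22.7 (0.44 ± 0.144). Neither was called when any KO_nonPC library or WT_nonPC replicate 1 or 2 was left out (adjusted p up to 0.195 and 0.148 in edgeR). Sdhb was the 1 gene of complex II called, at -0.38 ± 0.130.

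Within Paneth cells 4 of 90 nuclear members were lower in KO_PC and none was higher (4.44%, against 3.22% of all genes, 1.52% lower). The median log2 fold change was -0.33, and 83 of 90 values were below 0, against 6129 of 13057 over all genes tested. Ndufa4, a subunit first assigned to complex I and now placed in complex IV, was at 369, 297 and 243 normalised CPM in WT_PC and 237, 153 and 177 in KO_PC, a difference of -0.68 ± 0.171 (adjusted p = 0.0476). Cox7b, a small subunit of complex IV, was at 328, 276 and 241 against 235, 147 and 156 (-0.66 ± 0.169), and Atp5if1 at 249, 223 and 187 against 176, 125 and 121 (-0.64 ± 0.167). Cox7a2l, a factor of respiratory supercomplexes with 72.7% unique windows, was at 133, 132 and 106 against 101, 75.8 and 79.0 (-0.54 ± 0.132). In each of the 4 genes the groups were separate, but by little. The count was not stable, being 30 lower with DESeq2 and 0 with library totals or without WT_PC replicate 1 or 2 or KO_PC replicate 2 or 3, and 46 without KO_PC replicate 1 and 18 without WT_PC replicate 3. Stem cell markers summed to 7353 to 7876 normalised CPM in WT_PC and 3763 to 5542 in KO_PC, and tuft markers to 159 to 435 and 404 to 1075, although no marker of either list passed (lowest edgeR adjusted p = 0.0518 for Olfm4 and 0.094 for Pou2f3), and their part in these differences was not tested.

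Genes that make, maintain and serve the OXPHOS complexes were described in the same way for the genotype difference in non-Paneth cells. Of 77 mitochondrial ribosomal proteins, which translate the mtDNA genes, 16 were higher and 1 lower in KO_nonPC (median 0.15), and of 25 genes of mtDNA maintenance and transcription 7 were higher and 1 lower (median 0.27). Lrpprc, which stabilises mtDNA-encoded mRNAs, was at 102, 108 and 128 normalised CPM in WT_nonPC and 175, 168 and 177 in KO_nonPC (log2 fold change 0.62 ± 0.120), and Tfam, which packages and transcribes mtDNA, at 75.2, 62.9 and 76.1 against 86.3, 86.0 and 92.5 (0.31 ± 0.114). Polg2, the accessory subunit of the mtDNA polymerase, was the 1 that fell, by 0.90 ± 0.218 on the log2 scale. With RLE factors the calls were 8 higher and 2 lower for ribosomal proteins and 4 higher and 1 lower for mtDNA maintenance. These lists were called in 22.1% and 32% of their members, below the 37.3% of all genes.

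The background for these lists too was 37.3% of all genes called (19.8% lower and 17.5% higher). Of 39 assembly factors outside the symbol prefixes, 6 were higher and 2 lower (20.5% called), and the 2 were Sco2 (-1.19 ± 0.229) and Cox17 (-0.99 ± 0.289), which deliver copper to complex IV. Of 14 tricarboxylic acid cycle enzymes, 5 were lower and 2 higher (50%). Ogdh, of the 2-oxoglutarate dehydrogenase complex, was at 813, 855 and 835 normalised CPM in WT_nonPC and 530, 441 and 457 in KO_nonPC (-0.81 ± 0.130), while the NADP-dependent Idh2 was higher (0.57 ± 0.133). Of 13 electron carriers and exchange proteins 5 were lower, among them Cycs, cytochrome c (-0.48 ± 0.145), and 1 was higher. Among 12 transcriptional regulators of mitochondria, Ppargc1a, a coactivator of mitochondrial genes, was at 27.2, 30.4 and 25.9 in WT_nonPC and 12.9, 7.80 and 9.43 in KO_nonPC (-1.47 ± 0.216), and its partner Esrra, the estrogen-related receptor alpha, fell by 0.75 ± 0.126. In the other direction Pprc1, a related coactivator, rose by 0.82 ± 0.135, Myc by 0.51 ± 0.115 and Yy1 by 0.44 ± 0.135.

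Between the fractions of WT mice, where 50.7% of all genes were called (26.7% lower and 24% higher), 10 of the 14 cycle enzymes were lower in Paneth cells and 1 higher, as were 8 and 0 of the 13 carriers, whereas ribosomal proteins had 10 higher and 6 lower of 77. Ppargc1a was at 4.18, 4.45 and 4.02 normalised CPM in WT_PC, below every non-Paneth library. Between genotypes within Paneth cells, edgeR called 3 mtDNA maintenance genes (12%) and 1 ribosomal protein (1.3%), all lower. The share over all genes there was 3.22% (1.52% lower). The same test called 0 cycle enzymes, carriers, assembly factors and regulators (4, 6, 10 and 4 at an unadjusted p under 0.05).

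Short motifs of factors known to act on OXPHOS promoters were counted, on both strands, from 250 bases before to 50 bases after the annotated start of the 98 nuclear members and of 21614 genes in all (GRCm39). The NRF1 motif, GCGCANGCG, was in 17.3% of member promoters and 8.08% of all, and an ETS core, CCGGAAG, in 16.3% and 10.3%. A YY1 motif, AAGATGGCG, was in 2.04% against 1.34%, and TCAAGGTCA, bound by estrogen-related receptors, in 1.02% against 0.477%. The half-site of the glucocorticoid receptor, AGAACA, was in 14.3% against 17.0%. The promoters of all genes were not matched to those of the members in expression or base content. Longer forms of the NRF1 and YY1 motifs were counted first, and these shorter forms were chosen after those counts were seen. A promoter could hold more than one motif, as that of Sdhd held those of NRF1, ETS and estrogen-related receptors. The NRF1 stretches of a pair of complex II genes that were lower in Paneth cells and of Ndufaf4, which was higher in KO_nonPC, are shown 5′ to 3′ on the gene's strand with the motif in capitals, at chr13:74498438-74498467 (minus strand), chr9:50515209-50515238 (minus strand) and chr4:24897960-24897989 (plus strand).
Sdha: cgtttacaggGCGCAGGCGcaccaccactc
Sdhd: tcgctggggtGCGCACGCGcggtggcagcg
Ndufaf4: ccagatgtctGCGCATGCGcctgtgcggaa

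Such a match describes the letters of the promoter and shows no binding.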

How the data were processed

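Bulk RNA-seq of 12 libraries was analysed. The deposited table holds raw counts per gene, which the authors made with STAR (2.7.10a, GeneCounts option) on mm39 after trimming with Trimmomatic (0.39), from single-end reads of a stranded TruSeq library; FastQC and DESeq2 are also named in the submitters' processing notes. GeneCounts keeps reads that map to 1 place, and no source used here states its strand setting. Of 55414 gene identifiers, 54749 were named through GENCODE release M39 on GRCm39, the same assembly. No row without a gene was present in library totals and 0 per-sample columns went unused.

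All 12 libraries entered 1 edgeR fit (4.0.16, R 4.3.3) with a mean per group, TMM factors, filterByExpr and robust quasi-likelihood tests, with Benjamini-Hochberg adjustment over 13057 genes at a false discovery rate of 5%. SE is the absolute log2 fold change over the square root of F. Normalised CPM use TMM factors. DESeq2 (1.42.0), other scalings, filters, library sets, length and GC correction and a replicate block were alternatives. Steps were tested on simulated data. Replicates differed by far more than sampling noise (chi-square per degree of freedom of 13.2 or more). Same-numbered WT_PC and WT_nonPC libraries deviated together (r = 0.382, 0.245 and 0.283 across genes). The labels do not say whether a shared number is a shared mouse, and the main fit used no block.

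Named members were all mtDNA genes, Sdha to Sdhd, isoform groups, up to 5 nuclear members per direction with the largest differences among those called whose libraries did not overlap, and the highest per kb in each complex. Members and lists were chosen with earlier results of these data known. Fastkd4 was not found under that symbol, and 1 ribosomal protein and 1 assembly factor were too low to test.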

Additional observations from a re-analysis of the deposited data

Results flagged for a closer look

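The genotype difference was called as differing between the 2 fractions for 3 members, by the test of the difference itself (edgeR quasi-likelihood, interaction of genotype and fraction). These were 1 of 90 nuclear members (1.11%) and 2 of 7 mtDNA members (28.6%), where 18.7% of all genes were called. For Cox7a1, the muscle form of a complex IV subunit, the Paneth minus non-Paneth value was 1.64 on the log2 scale (adjusted p = 0.0122), with a lowest value of 1.38 and adjusted p of 4.9e-07 to 0.0502 over the alternatives run. The Paneth libraries of both genotypes were at 7.17 normalised CPM or less. For mt-Nd5 it was 1.08 (adjusted p = 0.0076), with a lowest value of 0.78 and adjusted p of 4.61e-05 to 0.0247. For mt-Nd2 it was 0.74 (adjusted p = 0.0443), with a lowest value of 0.43 and adjusted p of 0.00518 to 0.21. Levels of mt-Nd2 were 1259, 1062 and 885 normalised CPM in WT_PC, 936, 593 and 669 in KO_PC, 2502, 2600 and 2442 in WT_nonPC and 1020, 980 and 1092 in KO_nonPC.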

How the results depend on the processing

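Library totals in place of TMM factors moved the nuclear counts to 84 (WT fractions), 90 (KO fractions), 0 (genotype in Paneth cells), 9 (genotype in non-Paneth cells, 7 of them higher) and 8 (interaction), and the mtDNA counts to 7 (KO fractions) and 1 (interaction). At a false discovery rate of 1%, nuclear counts were 27, 0, 6 and 0 for the KO fractions, both genotype comparisons and the interaction, and mtDNA counts 1 for the KO fractions and 1 for the interaction. For the KO fractions the mtDNA count was 2 with RLE factors, 1 with at least 10 counts in every library of a group and 2 with the length and GC trend removed. For genotype in Paneth cells, nuclear and mtDNA counts were 30 and 5 with DESeq2 and 27 and 4 with no filter on low counts; nuclear counts alone were 8 with the stricter filter, 0 with only the groups compared and 1 with the length and GC trend removed. For genotype in non-Paneth cells the nuclear count was 45 with only the groups compared and 16 with the trend removed, which gave 4 nuclear calls in the interaction, where no filter gave 1 mtDNA call. The cause of these changes was not tested.

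With the replicate number as a block, genotype in Paneth cells gave 27 nuclear and 4 mtDNA calls. When the length and GC trend was removed as well, it gave 22 nuclear and 0 mtDNA calls. For the fraction comparisons and the interaction, the block was genotype and replicate number together. With that block and the trend removed, the interaction gave 6 nuclear and 5 mtDNA calls. Outside the WT fractions same-numbered libraries did not all deviate together (r of -0.0391 to 0.481 between KO fractions, -0.0971 to 0.159 between Paneth groups and -0.104 to 0.174 between non-Paneth groups). These blocks changed no call of a named gene in the WT fractions, where 43 nuclear members passed, or between genotypes in non-Paneth cells.

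Leaving out each library in turn gave nuclear counts of 23 to 42 (WT fractions), 20 to 64 (KO fractions), 0 to 46 (genotype in Paneth cells), 7 to 28 (genotype in non-Paneth cells) and 0 to 10 (interaction), and mtDNA counts of 0 to 5 (KO fractions), 0 to 6 (genotype in Paneth cells) and 1 to 6 (interaction, 6 without WT_PC replicate 1). Ndufa1 between KO fractions reversed to -0.48 with library totals and to -0.16 with the trend removed (-0.15 with the block as well), and mt-Nd6, not called between genotypes in Paneth cells (-0.61), to 0.021 with the block and the trend removed and to 0.014 without WT_PC replicate 1 (from -0.98 without KO_PC replicate 1). Nr3c1 in Paneth cells kept its direction (-2.82 to -2.03 over libraries left out) but missed the threshold at 1% (-2.31), with only the groups compared (-2.35) and without KO_PC replicate 2 or WT_PC replicate 1.

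Alternatives for the pathway lists were chosen after seeing the data. In non-Paneth cells, mtDNA maintenance gave 5 calls with RLE factors and 19 with library totals, ribosomal proteins 10, 47 and, with the trend removed, 35, assembly factors 16 with totals and 14 with the trend removed, and regulators 8 with totals. The mtDNA to nuclear ratio was 2.30 in WT_nonPC and 1.07 in KO_nonPC from counts per kb, and 1.06 in KO_nonPC from mtDNA genes with at least 50% unique windows. Among the mtDNA results, the counts of 7 of 7 in the WT fractions and in non-Paneth cells stayed within 1.5 times under every alternative run. Depth limits mt-Nd6, Cox6b2 and Cox5b-ps, which were at a few normalised CPM.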
